A study of Caenorhabditis elegans with 12 samples.

Results

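Genes named for the Hedgehog-related and patched-related protein families of the nematode Caenorhabditis elegans were followed in hrg-2 mutants and wildtype animals at 2 heme levels. Members were chosen by name alone. A probe set entered when its only gene symbol was wrt, grd, grl, hog, qua, ptr, ptc or ptd with a number, and where a gene had several, that of highest mean stood for it. This gave 81 genes of the 17138 genes that had a probe set of a single gene symbol. They are 10 warthog (wrt), 12 groundhog (grd), 30 ground-like (grl), 1 hog and 1 quahog (qua) gene on the ligand-like side, and 2 patched (ptc), 24 patched-related (ptr) and 1 ptd gene on the receptor-like side. The RefSeq annotation lists 89 genes of these names. The other 8, grd-4, grd-6, grd-13, grd-15, grd-17, grl-26, grl-32 and ptc-2, had no probe set of their own. The probe sets of 26 members carry the _s_at or _x_at ending, which Affymetrix gives to probe sets that can match more than a single transcript, so related copies may contribute to their values.

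C. elegans has no classical Hedgehog ligand and no Smoothened, but it carries a much expanded set of secreted proteins that share either the self-cleaving Hog region of Hedgehog or a nematode-specific amino-terminal domain. Its Patched homologues and the patched-related proteins are membrane proteins with a sterol-sensing domain. Many genes of both sides are transcribed in the hypodermis, the epithelium that makes the cuticle, and in glia and other epithelia that line openings, and their transcription goes up and down with each molt. Loss of several of them disturbs molting, cuticle shape or growth.

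The series holds 12 Affymetrix arrays of mid-late L4 larvae (L4 is the final larval stage), in 4 groups of 3: hrg-2 mutants with 20 µM heme, wildtype animals with 20 µM heme, hrg-2 mutants with 4 µM heme and wildtype animals with 4 µM heme. The worm lacks heme synthesis and has to take heme up, and HRG-2, made in the hypodermis, is known for a role in heme use there, so the comparisons ask how its loss and the heme supply bear on transcription. The allele of the mutant is not given in the labels, and with 0 probe sets named for hrg-2 its RNA could not serve as a check of the genotype labels. Total RNA was used, no dissection is given in the labels, and nothing in them says whether the 3 arrays of a group stand for separate cultures. The p-values therefore rest on the spread between the 3 arrays of a group, pooled over the 4 groups, and this spread may be technical. An array that lies far from its group widens the error of every comparison, and precision is limited by the number of arrays.

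Each array's values are named below by its number, 1, 2 or 3, from the sample titles, and values within a group are given in that order. All levels are the deposited log2 values, and differences are in log2 units, so that 1 unit is a 2-fold difference. Of the 8 hypodermal marker genes measured, 7 lay above the array median on all 12 arrays, as did 5 of 6 intestinal, 3 of 4 muscle and 3 of 4 neuronal markers. The arrays numbered 3 stood apart from those numbered 1 and 2 in all 4 groups. On them sperm genes were higher by a median of 2.29 log2 units over the 8 genes, and oocyte genes by 0.72 over 7. The median shift of the oocyte genes was 2.27 in mutants at 4 µM and 0.57 to 0.67 in the other groups. The 5 yolk genes did not shift alike, by medians of 3.43 in mutants and 0.80 in wildtype at 20 µM and of 4.78 in mutants and -1.23 in wildtype at 4 µM. The 8 hypodermal markers shifted both ways, with a median of 0.04, from -0.69 for elt-3 to 2.23 for bli-1. The collagen genes bli-1, which is among these 8, bli-2 and col-19, which are used late in the L4 stage and in the adult cuticle, were higher on them by medians of 2.23, 1.90 and 3.87. In mutants at 20 µM, however, bli-1 and bli-2 shifted by only 0.16 and 0.02. Results are therefore given for all 12 arrays and again for the arrays numbered 1 and 2 alone.

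The families covered a wide span of levels. On all 12 arrays 28 of the 81 members lay above the array median, 11 lay in the lowest 25% of probe sets, and 42 did neither. Values that low are near background, and small differences between them carry little weight. The groundhog genes grd-3 and grd-10 and the ground-like gene grl-7 had the highest means of the set, 11.88, 11.68 and 11.81, followed by wrt-2 at 11.32, ptr-23 at 10.53 and grl-16 at 10.24. Means of 2.37 for grl-24, 2.51 for grl-18 and 2.54 for grd-16 were the lowest. A probe set's level also depends on its probes, so these figures do not rank RNA amounts between genes.

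The members varied more between arrays than the array as a whole. Their median range over the 12 arrays was 1.77 log2 units, against 1.27 for all 22548 probe sets tested. Among probe sets above the median mean it was 2.48 for the 42 members there and 1.47 for all. A range over 2 log2 units was found for 35 members, or 43.2%, against 22.1% of all probe sets. Much of this lay between arrays of the same group: the median SD within groups was 0.52 for the members and 0.37 for all probe sets, and 0.74 and 0.44 among those above the median mean. Of the families with more than 2 members, the warthog genes had the largest median range, 2.95 over 10 genes, against 1.79 for the 24 ptr, 1.60 for the 30 grl and 1.58 for the 12 grd genes.

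**Figure D1:**
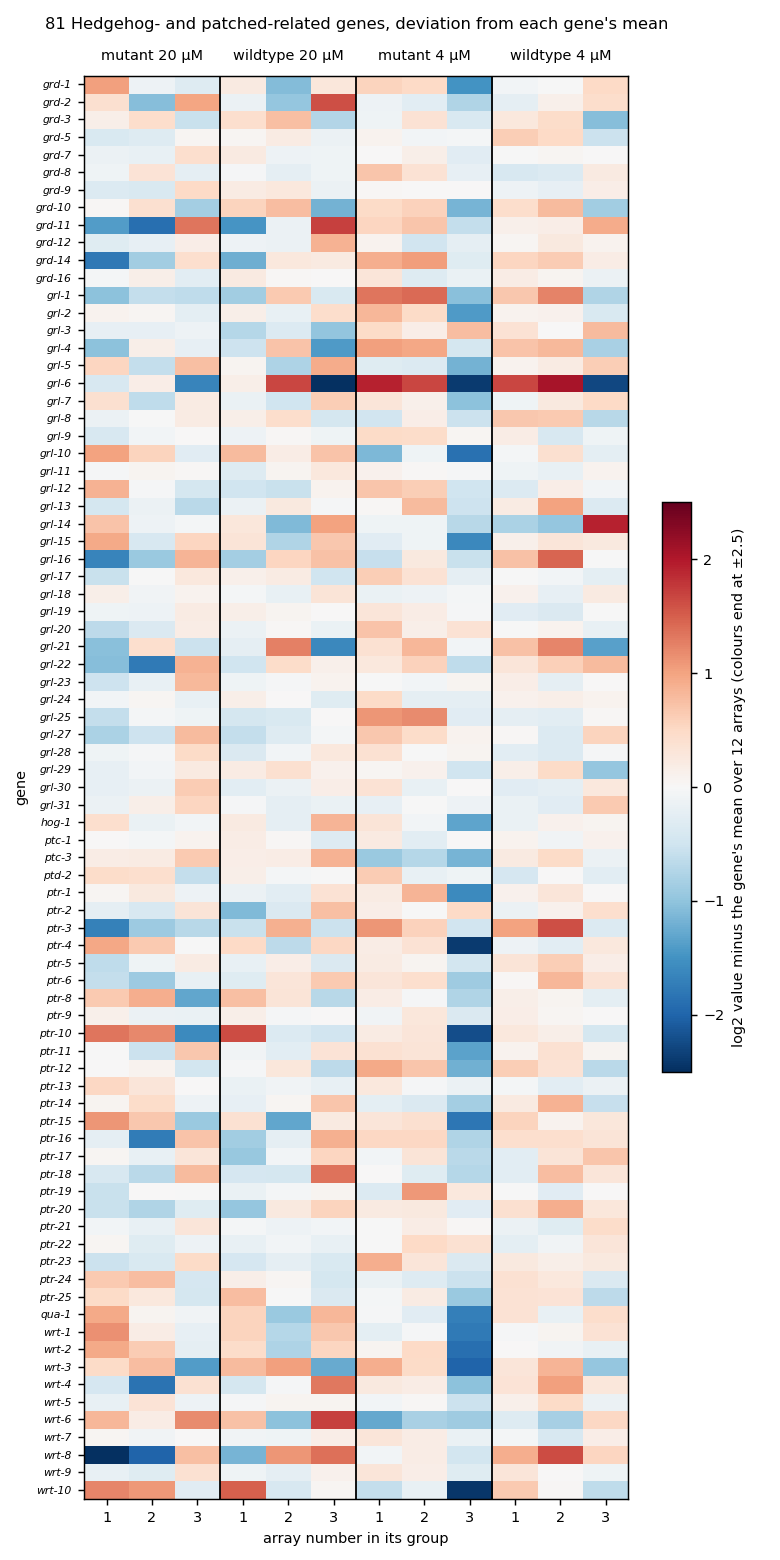
Each row is 1 of the 81 genes and each column an array, grouped by genotype and heme level, with mutants left of wildtype and 20 µM left of 4 µM; colour gives the log2 value minus the gene's mean over the 12 arrays, and colours end at ±2.5. Array 3 of the mutants at 4 µM has the most blue cells, and arrays 1 and 2 of the mutants at 20 µM are blue for a different set that includes wrt-8, grd-11, grd-14 and grl-22.

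The lowest values were not spread evenly over the arrays. Array 3 of the mutants at 4 µM held the lowest of the 12 values for 27 of the 81 members, or 33.3%, against 16.7% of all probe sets, and the highest for 0 members, against 13% of all. Among the 42 members above the median mean it held the lowest value for 20, or 47.6%, against 20.7% of all probe sets there. The median level of the 81 members on that array was 4.91, against 5.59 to 6.49 on the 11 others, while the median of all probe sets on it, 5.814, lay within the range of 5.735 to 5.932 seen on the 12 arrays. Array 3 of the wildtype animals at 20 µM stood on the other side, with the highest value for 14 members, or 17.3%, against 3.80% of all probe sets. Arrays 1 and 2 of the mutants at 20 µM held the lowest value for 13 and 9 members, or 16% and 11.1%, against 10.4% and 4.88% of all.

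**Figure D2:**
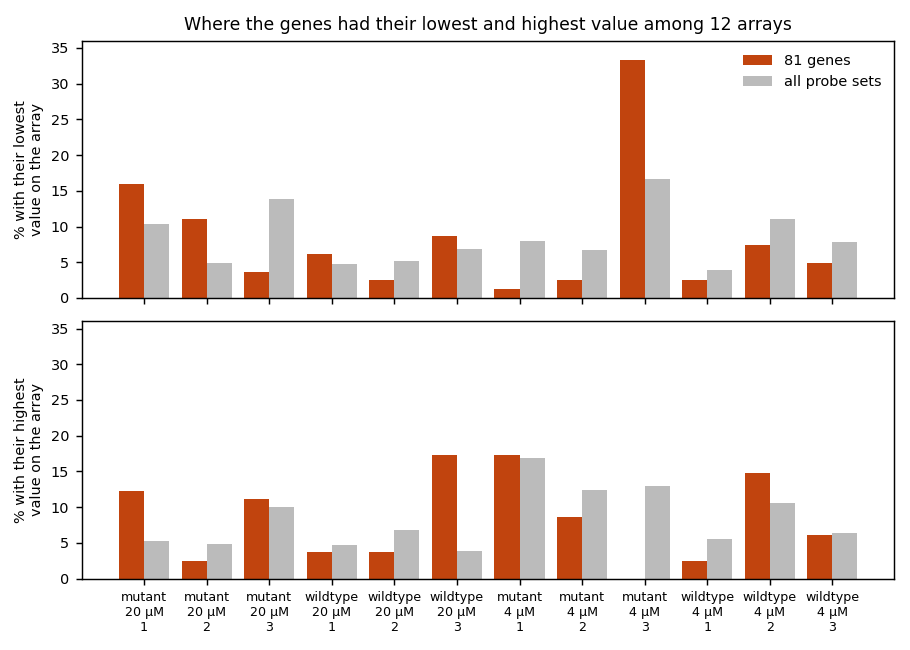
Bars give the percentage of the 81 genes (red) and of all probe sets (grey) that had their lowest value (upper panel) or highest value (lower panel) on each of the 12 arrays, with mutants left of wildtype and 20 µM left of 4 µM. Array 3 of the mutants at 4 µM holds the lowest value of 33.3% of the genes and the highest of 0, and array 3 of wildtype at 20 µM holds the highest of 17.3%.

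Genes used in molting and cuticle formation were also low on that array. Of the 30 genes of a molting and cuticle list, all measured, 20 had their lowest value on array 3 of the mutants at 4 µM and 1 had its highest there. The median shift of these 30 genes, array 3 minus the mean of arrays 1 and 2, was -0.23 in mutants at 20 µM, 0.28 in wildtype at 20 µM, -1.21 in mutants at 4 µM and 0.07 in wildtype at 4 µM. In the same order the hypodermal markers shifted by 0.11, 0.48, -0.42 and 0.02, and the sperm genes by 1.03, 2.06, 3.75 and 2.34. Their part in the results below was not tested. In RNA from whole samples, fewer cells of a type and less RNA per cell cannot be told apart.

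Some members stood apart with the array number in every group. A member was counted when array 3 lay on the same side of the mean of arrays 1 and 2 in all 4 groups, with a median shift over 1 log2 unit. Lower on array 3 by this rule were 8 of the 81, or 9.88%, against 6.43% of all probe sets, and higher were 0, against 6.75%. The 8 were grl-6, wrt-3, ptr-10, grd-10, grl-21, wrt-10, grd-3 and ptr-8. Another probe set of ptr-4 and another of ptr-23 also met the rule, with median shifts of -1.69 and -1.24. The probe sets that stood for these genes did not meet it, nor did the remaining ones of ptr-23.

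Among the ligand-like genes, grl-6 had the largest shift. It read 6.09, 6.67 and 4.84 in mutants at 20 µM, 6.65, 8.16 and 3.90 in wildtype at 20 µM, 8.43, 8.17 and 4.10 in mutants at 4 µM, and 8.17, 8.56 and 4.23 in wildtype at 4 µM. The shift of array 3 was -1.53, -3.50, -4.20 and -4.13 in these groups, and in every group array 3 was the lowest. Values of wrt-3 were 6.82, 7.12 and 4.94 in mutants at 20 µM, 7.13, 7.36 and 5.09 in wildtype at 20 µM, 7.24, 6.82 and 4.34 in mutants at 4 µM, and 6.65, 7.20 and 5.38 in wildtype at 4 µM. For this warthog gene too, array 3 lay below the mean of arrays 1 and 2 in each group, by 1.54 units or more, and the groups overlapped.

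The groundhog gene grd-10 showed the same order, with 11.71, 12.08 and 10.84 in mutants at 20 µM, 12.24, 12.45 and 10.51 in wildtype at 20 µM, 12.17, 12.27 and 10.53 in mutants at 4 µM, and 12.12, 12.48 and 10.82 in wildtype at 4 µM. Array 3 was its lowest in all 4 groups, and the remaining arrays lay within 11.71 to 12.48. For grd-3 the values were 12.03, 12.32 and 11.32 in mutants at 20 µM, 12.29, 12.62 and 11.15 in wildtype at 20 µM, 11.77, 12.23 and 11.49 in mutants at 4 µM, and 12.13, 12.34 and 10.81 in wildtype at 4 µM, a median shift of -1.08. The ground-like gene grl-21 read 8.40, 9.87 and 8.90 in mutants at 20 µM, 9.21, 10.70 and 7.82 in wildtype at 20 µM, 9.82, 10.28 and 9.37 in mutants at 4 µM, and 10.17, 10.66 and 8.09 in wildtype at 4 µM. In wildtype its array 3 was the lowest of each group, whereas in mutants at 20 µM array 1 was lower still.

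A further ground-like gene, grl-4, had a median shift of -1.48 but was not lower on array 3 in every group. It read 7.75, 8.93 and 8.58 in mutants at 20 µM, 8.27, 9.50 and 7.36 in wildtype at 20 µM, 9.81, 9.75 and 8.35 in mutants at 4 µM, and 9.50, 9.60 and 7.97 in wildtype at 4 µM. Array 3 lay above the mean of arrays 1 and 2 in mutants at 20 µM alone.

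On the receptor-like side, ptr-10, a patched-related gene transcribed in glia, read 7.90, 7.76 and 4.96 in mutants at 20 µM, 8.20, 6.22 and 6.08 in wildtype at 20 µM, 6.76, 6.86 and 4.34 in mutants at 4 µM, and 6.82, 6.70 and 6.12 in wildtype at 4 µM. Its shifts in these groups were -2.87, -1.14, -2.47 and -0.64. Both mutant groups had a lower array 3 than either wildtype group. The 2 other glial marker genes measured shifted by a median of -1.17 on array 3, and their part was not tested. For ptr-8 the median shift was -1.03.

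Shifts in the other direction were smaller or were not shared by all groups. The groundhog gene grd-11 had a median shift of 1.65, with 5.57, 5.09 and 8.32 in mutants at 20 µM and 5.50, 6.82 and 8.69 in wildtype at 20 µM, but 7.51, 7.66 and 6.37 in mutants at 4 µM and 7.11, 7.14 and 7.90 in wildtype at 4 µM. Array 3 was thus its highest array in 3 groups and its lowest in mutants at 4 µM. The same split held for grd-2, at 7.82, 6.35 and 8.41 in mutants at 20 µM, 7.27, 6.46 and 9.03 in wildtype at 20 µM, 7.29, 7.15 and 6.67 in mutants at 4 µM, and 7.20, 7.54 and 7.87 in wildtype at 4 µM. Among the patched-related genes, ptr-18, which acts in the arrest of starved larvae, read 5.86, 5.59 and 7.06 in mutants at 20 µM, 5.84, 5.83 and 7.62 in wildtype at 20 µM, 6.27, 5.97 and 5.55 in mutants at 4 µM, and 6.01, 7.04 and 6.57 in wildtype at 4 µM. With ptr-16 the values were 6.59, 5.06 and 7.52 in mutants at 20 µM, 5.95, 6.60 and 7.70 in wildtype at 20 µM, 7.34, 7.34 and 6.07 in mutants at 4 µM, and 7.24, 7.24 and 7.13 in wildtype at 4 µM. At 20 µM both genes were highest on array 3 in each genotype, and in mutants at 4 µM they were lowest there. The median shifts were 0.91 for grd-2, 0.69 for ptr-18 and 0.66 for ptr-16. That of wrt-6 was 0.88, and this gene was higher on array 3 in all 4 groups, by 0.67 in mutants and 1.86 in wildtype at 20 µM and by 0.16 in mutants and 1.08 in wildtype at 4 µM. For grl-5 the median shift was 0.62.

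**Figure D3:**
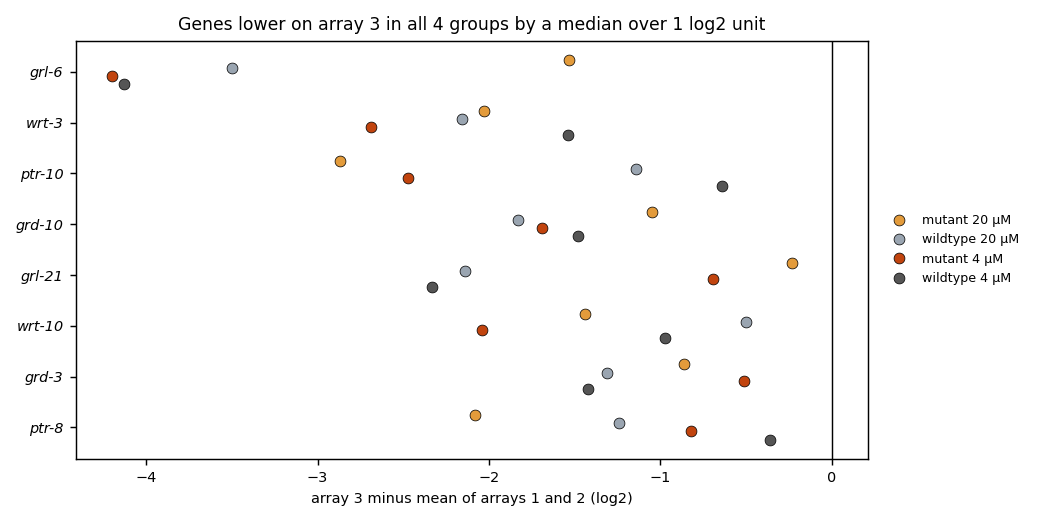
Points give array 3 minus the mean of arrays 1 and 2 in log2 units for each of the 4 groups, for the 8 genes that were lower on array 3 in all groups by a median over 1 unit. All points lie below 0, and grl-6 reaches -4.20 in mutants at 4 µM.

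At 4 µM heme the clearest difference between mutants and wildtype was in ptc-3, a Patched homologue that larvae need for growth and molting, which was lower in the mutants on all 3 arrays. No member passed the threshold, an adjusted p under 0.05 by limma with Benjamini-Hochberg adjustment over all probe sets, where 0.00887% of all probe sets did so. At an unadjusted p under 0.05 there were 3 members, ptc-3, grl-10 and grl-25, or 3.70%, against 6.11% of all probe sets. Of the 81 members 30 were higher in the mutants and 51 lower, with a median difference of -0.18, against 0.03 for all probe sets.

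That lean towards lower values changed with the arrays used and with centring. Without array 3 of the mutants the median difference was 0.08, and it was 0.06 on the arrays numbered 1 and 2 alone. With each array's values centred on a common median it was -0.05. By family, 1 of 10 warthog genes was higher in the mutants at 4 µM (median -0.55), 4 of 12 grd genes (median -0.12), 17 of 30 grl genes (median 0.02) and 7 of 24 ptr genes (median -0.34). With centred arrays the family medians were -0.42, 0.01, 0.16 and -0.20, so that of the grd genes turned its sign.

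The 2 genotypes did not overlap at 4 µM for 9 members. Higher on all mutant arrays were grl-20 and grl-28, 2.47% of the members, against 4.84% of all probe sets. Lower on all mutant arrays were wrt-1, wrt-4, wrt-8, grl-5, grl-15, ptc-3 and ptr-20, 8.64% of the members, against 4.28% of all probe sets.

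Of the warthog genes, wrt-8 read 7.60, 7.87 and 7.22 in mutants at 4 µM and 8.59, 9.31 and 8.22 in wildtype at 4 µM. Its difference was -1.15 ± 0.88 (SE, adjusted p 0.842 by limma). For wrt-4 the values were 9.53, 9.46 and 8.25 in mutants and 9.63, 10.31 and 9.56 in wildtype at 4 µM. The groups were 0.03 units apart at their nearest arrays, and array 3 of the mutants was the farthest from wildtype for both genes.

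Among the ground-like genes, grl-10 read 8.08, 9.10 and 7.34 in mutants at 4 µM and 9.16, 9.61 and 8.97 in wildtype at 4 µM, a difference of -1.07 ± 0.45 (SE, unadjusted p 0.0369, adjusted p 0.791). Mutant array 2 overlapped the wildtype range. The values of grl-5 were 9.41, 9.37 and 8.53 in mutants and 9.79, 9.90 and 10.31 in wildtype at 4 µM, and those of grl-15 were 9.54, 9.71 and 8.22 in mutants and 9.96, 10.12 and 10.07 in wildtype at 4 µM. Both differed by about 0.9 units, at -0.90 ± 0.47 for grl-5 and -0.89 ± 0.49 for grl-15 (SE), and on the arrays numbered 1 and 2 by -0.45 and -0.41. At 20 µM grl-5 read 10.24, 9.10 and 10.45 in mutants and 9.78, 8.94 and 10.63 in wildtype. There grl-15 read 10.77, 9.42 and 10.36 in mutants and 10.15, 9.07 and 10.50 in wildtype, and both genes overlapped between genotypes.

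The 4 members of smallest p among those higher in the mutants at 4 µM were ground-like genes of low level, grl-25, grl-19, grl-9 and grl-20. Values of grl-25 were 4.66, 4.73 and 3.26 in mutants and 3.33, 3.28 and 3.59 in wildtype at 4 µM, so mutant arrays 1 and 2 stood above wildtype and array 3 below it. The difference was 0.81 ± 0.36 (SE, unadjusted p 0.0462, adjusted p 0.791), and 1.39 on the arrays numbered 1 and 2, where it passed (adjusted p 0.0107). Another probe set of grl-25 differed in the same direction, by 0.60 over all arrays and by 0.89 on the arrays numbered 1 and 2 (adjusted p 0.0254). At 20 µM grl-25 read 2.95, 3.51 and 3.44 in mutants and 3.12, 3.18 and 3.57 in wildtype, with overlap.

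For grl-20 the mutant values at 4 µM were 4.93, 4.36 and 4.58, against 4.20, 4.30 and 4.03 in wildtype, and for grl-28 they were 4.64, 4.24 and 4.33, against 4.00, 3.92 and 4.23 in wildtype. The groups did not overlap for either gene, by margins of 0.06 and 0.01. The values of grl-9 were 4.41, 4.40 and 3.99 in mutants and 4.13, 3.53 and 3.82 in wildtype at 4 µM. Those of grl-19 were 3.18, 3.07 and 2.85 in mutants and 2.59, 2.52 and 2.87 in wildtype at 4 µM. The differences of these 4 genes lay between 0.35 and 0.45, with adjusted p of 0.791 or more. At 20 µM the genotypes overlapped for all 4. The values there were 3.56, 3.85 and 4.41 in mutants and 4.07, 4.25 and 4.05 in wildtype for grl-20, and 4.15, 4.23 and 4.74 in mutants and 3.89, 4.19 and 4.53 in wildtype for grl-28. They were 3.53, 3.87 and 3.94 in mutants and 3.81, 3.97 and 3.82 in wildtype for grl-9, and 2.77, 2.75 and 3.09 in mutants and 3.02, 2.94 and 2.88 in wildtype for grl-19.

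On the receptor-like side ptc-3 read 6.86, 7.07 and 6.62 in mutants at 4 µM and 8.02, 8.27 and 7.64 in wildtype at 4 µM. All mutant arrays were lower than all wildtype arrays, and mutant levels averaged 6.85 ± 0.23, against 7.97 ± 0.32 in wildtype (SD, n = 3 each). The difference was -1.12 ± 0.26 (SE), a 2.18-fold lower value in the mutants, with an unadjusted p of 0.00129 and an adjusted p of 0.791 by limma. It was -1.16, -1.19 and -1.02 on the pairs numbered 1, 2 and 3. On the arrays numbered 1 and 2 it passed the threshold (-1.18, adjusted p 0.0109). The gene is read by a probe set with the _s_at ending, which the annotation pairs with ptc-3 alone.

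The list of hypodermal markers was also lower on these arrays. The 8 genes averaged 9.28 to 9.59 over the 3 arrays of mutants at 4 µM, against 9.69 to 10.23 over those of wildtype at 4 µM, with a median difference of -0.37. The lower values were those of the 5 cuticle collagen genes, from -0.34 for sqt-3 to -1.37 for dpy-7 and -1.62 for bli-1, while the genes of hypodermal transcription factors differed by 0.28 for elt-1, -0.05 for elt-3 and -0.23 for lin-26. Their part in the ptc-3 difference was not tested.

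At 20 µM heme ptc-3 read 7.98, 7.99 and 8.45 in mutants and 7.95, 7.98 and 8.66 in wildtype, a difference of -0.05 ± 0.26 (SE). Array 3 was the highest in each genotype, and the groups overlapped. The other Patched homologue measured, ptc-1, which acts in the germ line, read 9.94, 9.88 and 10.01 in mutants at 20 µM, 10.11, 9.96 and 9.61 in wildtype at 20 µM, 10.16, 9.67 and 9.94 in mutants at 4 µM, and 10.01, 9.84 and 10.04 in wildtype at 4 µM. These 12 values spanned 0.55 log2 units and overlapped between all groups. Another probe set of ptc-1, of lower level, spanned 1.14 log2 units, from 4.46 to 5.60. Its values also overlapped between genotypes at each heme level and between heme levels in each genotype.

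**Figure D4:**
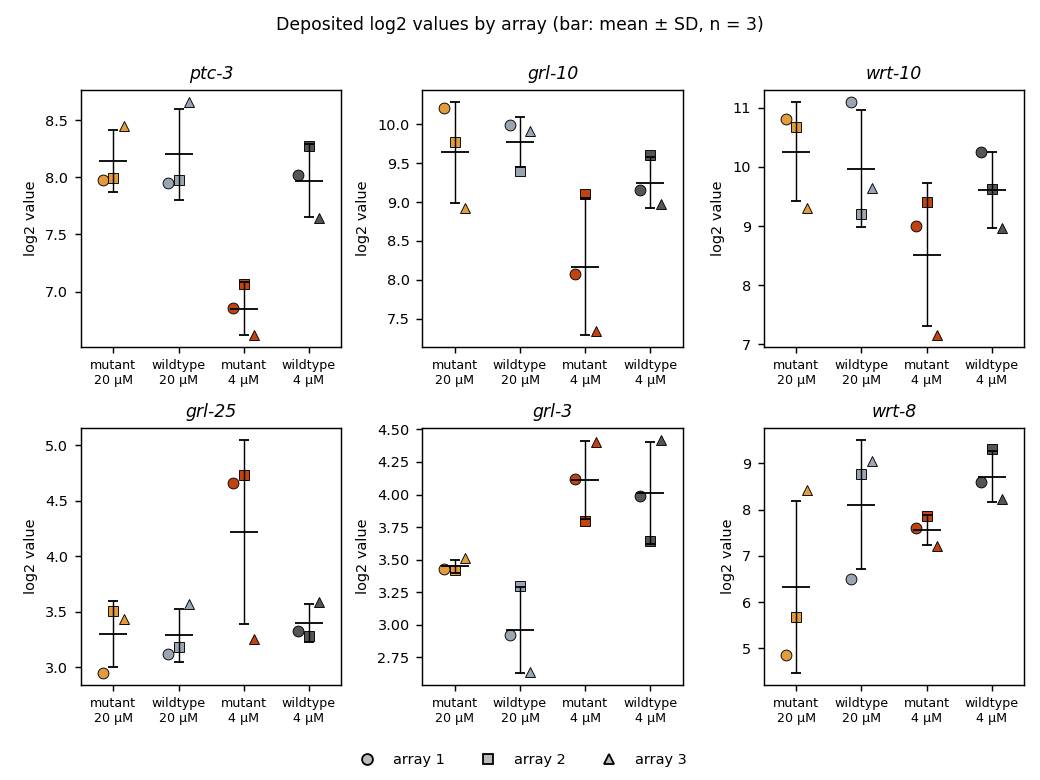
Points are the deposited log2 values of 6 genes on each array, by group, with mutants left of wildtype and 20 µM left of 4 µM; symbols give the array number and bars the group mean ± SD (n = 3). For ptc-3 the 3 mutant arrays at 4 µM, 6.62 to 7.07, lie below the 9 others, 7.64 to 8.66; for grl-3 the arrays at 20 µM lie below those at 4 µM in each genotype. Axes do not start at 0.

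Relatives of the same pathway outside the name rule were examined beside the members: che-14 (a Dispatched-like protein of epithelial secretion), daf-6 (a Patched-related protein that shapes glial channels), ncr-1 and ncr-2 (homologues of the Niemann-Pick sterol transporter), tra-1 (a Gli-like factor of sex determination) and scp-1 (a SCAP-like sterol sensor). Of these 6, 0 passed the threshold in any comparison of the 12 arrays. At 4 µM the genotypes did not overlap for che-14 and daf-6, both lower in the mutants, where 4.28% of all probe sets were lower without overlap. For ncr-1, ncr-2, tra-1 and scp-1 the genotypes overlapped. The values of che-14 were 5.06, 4.87 and 4.50 in mutants and 5.91, 5.84 and 6.10 in wildtype at 4 µM (-1.14 ± 0.30, SE, unadjusted p 0.00335, adjusted p 0.791). Those of daf-6 were 5.56, 5.38 and 5.03 in mutants and 6.00, 6.02 and 6.54 in wildtype at 4 µM (-0.86 ± 0.34, SE, unadjusted p 0.0304, adjusted p 0.791). Both genes sat below wildtype on each mutant array, as ptc-3 did.

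On the arrays numbered 1 and 2 alone, 2 of the 6 relatives passed at 4 µM, ncr-1 (-1.31, adjusted p 0.0141) and tra-1 (-0.93, adjusted p 0.0209), both lower in the mutants. On the pair numbered 3 both had the opposite sign, with 0.17 for ncr-1 and 0.15 for tra-1. Averaged over both heme levels on arrays 1 and 2, ncr-2 passed as higher in the mutants (0.78, adjusted p 0.0466 by limma). In that average ncr-1 and tra-1 passed as lower. Among the members 3 passed at 4 µM on arrays 1 and 2, grd-8 (0.89) and grl-25 (1.39) higher and ptc-3 (-1.18) lower in the mutants. That is 3.70% of the members, against 13% of all probe sets. Of these 3, 1 differed in the same direction on arrays 3, ptc-3, as did 33.7% of all probe sets that passed on arrays 1 and 2.

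At 20 µM heme fewer members stood apart between mutants and wildtype than at 4 µM, and so did fewer of all probe sets. At an unadjusted p under 0.05 by limma, 1.68% of all probe sets stood apart at 20 µM, against 6.11% at 4 µM. This was not tested as a difference. No member passed the threshold, where 0.00443% of all probe sets did. At an unadjusted p under 0.05 there was 1 member, ptr-13, or 1.23%, against 1.68% of all probe sets. The members split into 39 higher and 42 lower in the mutants, with a median of -0.02, against -0.01 for all probe sets. On the arrays numbered 1 and 2 alone 0 members passed, against 1.22% of all probe sets.

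The genotypes did not overlap at 20 µM for 4 members. Higher in the mutants were grl-3 and ptr-13, 2.47% of the members, against 3.03% of all probe sets, and lower were grl-13 and ptr-3, 2.47%, against 3.69%. Of the ligand-like genes, grl-3 read 3.43, 3.42 and 3.51 in mutants at 20 µM and 2.92, 3.30 and 2.64 in wildtype at 20 µM, a difference of 0.50 ± 0.25 (SE, adjusted p 1). The wildtype array nearest to the mutants was 0.11 units away, and all of these values are low. The ground-like gene grl-31 read 3.34, 3.63 and 4.03 in mutants and 3.46, 3.27 and 3.33 in wildtype at 20 µM, and 3.28, 3.48 and 3.37 in mutants and 3.33, 3.20 and 4.14 in wildtype at 4 µM, with overlap at each level.

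The largest difference of a member at 20 µM was that of the warthog gene wrt-8. It read 4.87, 5.68 and 8.42 in mutants at 20 µM and 6.51, 8.78 and 9.05 in wildtype at 20 µM, so mutant array 3 lay within the wildtype range. The difference was -1.78 ± 0.88 (SE, unadjusted p 0.0694, adjusted p 1), and on the arrays numbered 1 and 2 it was -2.36 (adjusted p 0.112). The values of wrt-4 were 8.87, 7.43 and 9.66 in mutants and 8.84, 9.25 and 10.61 in wildtype at 20 µM, a difference of -0.91 ± 0.62 (SE), with overlap.

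Of the receptor-like genes at 20 µM, ptr-3 read 3.77, 4.57 and 4.78 in mutants and 4.92, 6.35 and 4.93 in wildtype, a difference of -1.03 ± 0.60 (SE, adjusted p 1). Mutant array 3 and wildtype array 1 were only 0.14 units apart. For ptr-13, of low level, the values were 3.22, 3.02 and 2.72 in mutants and 2.54, 2.62 and 2.52 in wildtype at 20 µM (0.43 ± 0.18, SE, unadjusted p 0.0377, adjusted p 1). Its values at 4 µM, 2.97, 2.69 and 2.56 in mutants and 2.66, 2.44 and 2.56 in wildtype, overlapped. The values of ptr-6 were 6.12, 5.80 and 6.53 in mutants and 6.42, 7.01 and 7.37 in wildtype at 20 µM, a difference of -0.78 ± 0.39 (SE), and wildtype array 1 lay between the mutant arrays. At 4 µM ptr-6 read 7.01, 7.13 and 5.82 in mutants and 6.74, 7.54 and 7.08 in wildtype.

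Averaged over both heme levels, ptc-3 was the member of smallest p, as at 4 µM. The average uses the same arrays as the comparisons at each level, and the ptc-3 difference in it came from 4 µM. Its averaged genotype difference was -0.59 ± 0.18 (SE, unadjusted p 0.00845, adjusted p 0.784). At an unadjusted p under 0.05 there were 4 members, ptc-3, wrt-8 and ptr-6 lower and ptr-13 higher in the mutants, or 4.94%, against 6.18% of all probe sets. No member passed the threshold, where 0.00887% of all probe sets did. The averaged difference of wrt-8 was -1.46 ± 0.62 (SE, adjusted p 0.803) and that of ptr-6 was -0.63 ± 0.28 (SE, adjusted p 0.803). Another probe set of ptr-6 gave -0.87 ± 0.28 (SE, adjusted p 0.784), with the same sign on all 3 numbered pairs at each heme level. With arrays weighted by their quality in limma 1 member passed, ptc-3 (adjusted p 0.0451), or 1.23%, against 3.86% of all probe sets. On the arrays numbered 1 and 2 alone 6 passed, or 7.41%, against 13.3% of all probe sets. These were grd-8 (0.57), grl-12 (0.83) and grl-25 (0.73) higher and grd-5 (-0.51), ptc-3 (-0.58) and wrt-8 (-1.79) lower in the mutants.

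Whether the genotype difference depended on heme was tested as the difference at 20 µM minus that at 4 µM. No member passed, and 0.0% of all probe sets did. At an unadjusted p under 0.05 there was 1 member, ptc-3 (1.07 ± 0.36, SE, unadjusted p 0.0141, adjusted p 1), or 1.23%, against 1.65% of all probe sets. Of the 81 members 46 were positive, with a median of 0.05, against -0.02 for all probe sets, and with centred arrays that median was -0.09. The next members were ptr-24 (0.86 ± 0.47, SE), grl-15 (1.16 ± 0.69, SE) and grl-5 (1.04 ± 0.66, SE) on the positive side, and grl-20 (-0.63 ± 0.33, SE), grl-19 (-0.45 ± 0.24, SE), grl-9 (-0.53 ± 0.29, SE) and grl-25 (-0.80 ± 0.51, SE) on the negative side, each with an adjusted p of 1.

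In the hrg-2 mutants more members stood apart between heme levels than in any other comparison at an unadjusted p under 0.05. At 20 µM against 4 µM, ptc-3, grl-10, wrt-6 and wrt-10 were higher and grl-20, grl-3, grl-25, ptr-3 and grl-9 lower. That is 9 members, or 11.1%, against 6.16% of all probe sets. None passed the threshold, where 0.0399% of all probe sets did. The members split into 39 higher and 42 lower at 20 µM, with a median of -0.01, against -0.05 for all probe sets. Of the 30 genes of the molting and cuticle list, 6 had an unadjusted p under 0.05 by limma, and the median difference was 0.53. Groups did not overlap for 6 of the 30, all higher at 20 µM, where 4.87% of all probe sets were higher without overlap. Their part in the differences of the members was not tested. This comparison shares the mutant arrays at 4 µM with the genotype comparison at 4 µM, so the results of both rest on the same arrays.

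Groups did not overlap for 7 members. Higher at 20 µM on all mutant arrays were wrt-6, ptc-3 and ptr-14, 3.70% of the members, against 4.87% of all probe sets. Lower were grl-3, grl-9, ptr-3 and ptr-20, 4.94%, against 4.47%.

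Of the warthog genes, wrt-6 read 7.86, 7.21 and 8.21 in mutants at 20 µM and 5.76, 6.22 and 6.15 in mutants at 4 µM. All 3 arrays at 20 µM lay above the 3 at 4 µM, and the difference was 1.71 ± 0.61 (SE, unadjusted p 0.0178, adjusted p 0.799), or 3.28-fold. In wildtype its values were 7.77, 6.00 and 8.74 at 20 µM and 6.71, 6.20 and 7.54 at 4 µM, with overlap (0.69 ± 0.61, SE). For wrt-10 the values were 10.81, 10.67 and 9.30 in mutants at 20 µM and 9.00, 9.41 and 7.16 in mutants at 4 µM (1.74 ± 0.69, SE, unadjusted p 0.0297, adjusted p 0.799). Each array at 20 µM was higher than the array of the same number at 4 µM, by 1.81, 1.26 and 2.14, although array 3 at 20 µM overlapped the range at 4 µM. In wildtype wrt-10 read 11.09, 9.20 and 9.64 at 20 µM and 10.25, 9.62 and 8.96 at 4 µM.

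The ground-like gene grl-10 read 10.21, 9.77 and 8.93 in mutants at 20 µM and 8.08, 9.10 and 7.34 in mutants at 4 µM. Pairs of the same number differed by 2.13, 0.67 and 1.59, and the difference was 1.46 ± 0.45 (SE, unadjusted p 0.00825, adjusted p 0.769). In wildtype grl-10 read 9.99, 9.40 and 9.92 at 20 µM and 9.16, 9.61 and 8.97 at 4 µM, with overlap.

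Of the 5 members lower in heme-supplied mutants at an unadjusted p under 0.05, 4 were ground-like genes of low level, grl-20, grl-3, grl-25 and grl-9. The values of grl-20 were 3.56, 3.85 and 4.41 in mutants at 20 µM and 4.93, 4.36 and 4.58 in mutants at 4 µM (-0.69 ± 0.23, SE, unadjusted p 0.0147, adjusted p 0.799), where array 3 at 20 µM overlapped. Those of grl-9 were 3.53, 3.87 and 3.94 at 20 µM and 4.41, 4.40 and 3.99 at 4 µM in mutants, 0.04 apart at the nearest arrays. The heme difference of grl-25 in mutants was -0.92 ± 0.36 (SE, adjusted p 0.799), and it came from arrays 1 and 2, since the pair numbered 3 differed by 0.18.

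Of the receptor-like genes, ptc-3 had the smallest p of all members in any comparison. In mutants it read 7.98, 7.99 and 8.45 at 20 µM and 6.86, 7.07 and 6.62 at 4 µM, a difference of 1.29 ± 0.26 (SE), or 2.45-fold, with an unadjusted p of 0.00047 and an adjusted p of 0.382 by limma. The same-numbered pairs differed by 1.12, 0.92 and 1.83. It passed on the arrays numbered 1 and 2 (1.02, adjusted p 0.0145) and with weighted arrays (1.06, adjusted p 0.0257). In wildtype the gene read 7.95, 7.98 and 8.66 at 20 µM and 8.02, 8.27 and 7.64 at 4 µM, and the groups overlapped.

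In mutants ptr-3 read 3.77, 4.57 and 4.78 at 20 µM and 6.58, 6.04 and 5.00 at 4 µM, a difference of -1.50 ± 0.60 (SE, unadjusted p 0.0305, adjusted p 0.799). In wildtype it read 4.92, 6.35 and 4.93 at 20 µM and 6.48, 7.09 and 5.12 at 4 µM. Each of the 6 same-numbered pairs was lower at 20 µM, and array 3 at 4 µM was the lowest of its group in each genotype. The values of ptr-20 were 4.31, 4.13 and 4.57 in mutants at 20 µM and 5.10, 5.12 and 4.59 in mutants at 4 µM, which differed at the nearest arrays by 0.02. In wildtype ptr-20 read 3.91, 5.11 and 5.43 at 20 µM and 5.27, 5.78 and 5.16 at 4 µM. For ptr-24 the values were 7.74, 7.86 and 6.68 at 20 µM and 6.92, 6.76 and 6.55 at 4 µM in mutants, and 7.23, 7.14 and 6.65 at 20 µM and 7.48, 7.36 and 6.72 at 4 µM in wildtype. Higher at 20 µM in mutants, it was lower at 20 µM in each wildtype pair.

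Without the arrays numbered 3, members passed the threshold in the mutants, but most differed in sign on the pair numbered 3. On arrays 1 and 2 alone 16 members passed, 3 higher and 13 lower at 20 µM. That is 19.8% of the members, against 14% of all probe sets. With arrays weighted by quality 5 passed, ptc-3 and ptr-24 higher and grl-25, grl-20 and grl-9 lower, or 6.17%, against 4.45%. Of the 16, 5 had the same direction on arrays 3, and of all probe sets called on arrays 1 and 2 34.8% did. The 5 were ptc-3, grl-10 and ptr-24, higher at 20 µM, and ptr-3 and grl-20, lower.

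The remaining 11 had the opposite sign on the pair numbered 3. They were wrt-8, grd-11, grd-14, grl-1, grl-6, grl-22, grl-25, grl-27, ptr-6, ptr-12 and ptr-23. For wrt-8 the mean of pairs 1 and 2 was -2.46 and the pair numbered 3 gave 1.21. The same figures were -2.26 and 1.94 for grd-11, and -1.84 and 1.50 for grl-22. Smaller values on the pair numbered 3 were seen for grl-6 (-1.92 and 0.75) and grl-1 (-2.18 and 0.40). Sperm genes, which are higher on the arrays numbered 3, stood apart in this comparison as well: on arrays 1 and 2 alone all 8 were higher at 20 µM, with a median of 2.03, and 7 of them passed the threshold, where 14% of all probe sets did. Their part was not tested.

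**Figure D5:**
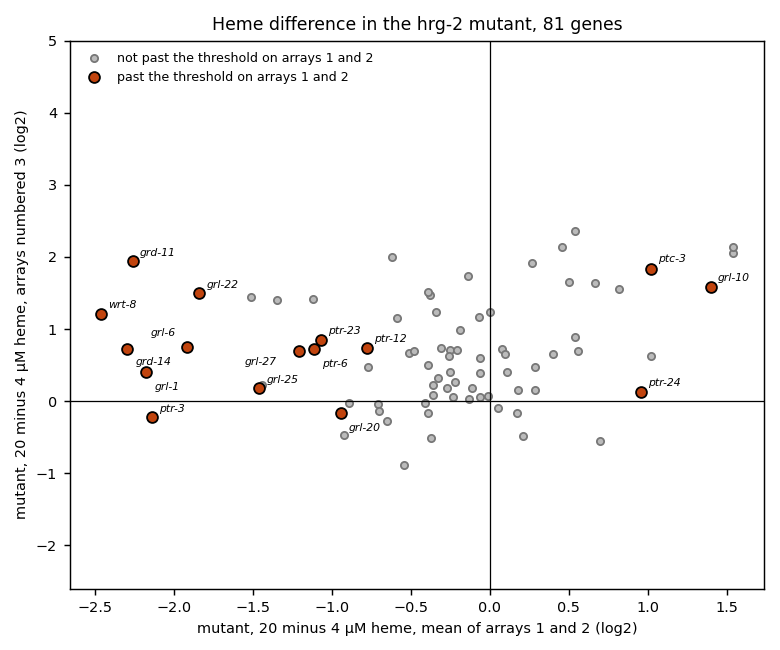
Each point is 1 of the 81 genes; the horizontal axis gives the heme difference in hrg-2 mutants, 20 µM minus 4 µM, as the mean of arrays 1 and 2, and the vertical axis the same difference on the arrays numbered 3, both in log2 units. Red points passed the threshold on arrays 1 and 2; of these 16, ptc-3, grl-10 and ptr-24 lie in the upper right and ptr-3 and grl-20 in the lower left, and 11 lie in the upper left.

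In wildtype animals few members stood apart between heme levels, and the same held for all probe sets. None passed the threshold, where 0.0355% of all probe sets did, and on the arrays numbered 1 and 2 alone 0 passed, against 0.244%. At an unadjusted p under 0.05 there was 1 member, grl-3, or 1.23%, against 1.39% of all probe sets. Of the 81 members 32 were higher and 49 lower at 20 µM, with a median of -0.09, against 0.00 for all probe sets. This comparison shares the wildtype arrays at 4 µM with the genotype comparison at that level.

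The ground-like gene grl-3 read 2.92, 3.30 and 2.64 in wildtype at 20 µM and 3.99, 3.64 and 4.42 in wildtype at 4 µM. Every array at 20 µM lay below every array at 4 µM, with a difference of -1.06 ± 0.25 (SE, unadjusted p 0.00159, adjusted p 1), or 2.08-fold. In mutants, with 3.43, 3.42 and 3.51 at 20 µM and 4.12, 3.80 and 4.40 at 4 µM, the groups were apart in the same direction (-0.65 ± 0.25, SE, unadjusted p 0.0248, adjusted p 0.799). All 6 same-numbered pairs were thus lower at 20 µM. The gene lay low on the arrays, at 2.64 to 4.42, so its differences are close to background.

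Groups also did not overlap for ptr-23, lower at 20 µM, and for grl-19, higher. Lower members without overlap were 2, or 2.47%, against 4.04% of all probe sets, and higher ones 1, or 1.23%, against 2.64%. The patched-related gene ptr-23 read 10.11, 10.30 and 10.14 in wildtype at 20 µM and 10.77, 10.67 and 10.77 in wildtype at 4 µM (-0.55 ± 0.33, SE, adjusted p 1). Its 6 wildtype values formed 2 tight groups, whereas in mutants it read 9.99, 10.15 and 11.01 at 20 µM and 11.44, 10.84 and 10.16 at 4 µM, and these overlapped. Further probe sets of ptr-23 gave wildtype heme differences of -0.58, -0.25 and -0.61, all of the same sign. On each of these the wildtype values at 20 µM and 4 µM overlapped.

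For grl-19, of low level, the wildtype values were 3.02, 2.94 and 2.88 at 20 µM and 2.59, 2.52 and 2.87 at 4 µM, 0.01 apart at the nearest arrays. The values of ptr-5 were 3.81, 4.17 and 3.63 at 20 µM and 4.33, 4.62 and 4.16 at 4 µM in wildtype (-0.50 ± 0.27, SE, adjusted p 1), so each pair was lower at 20 µM although the groups overlapped. In mutants ptr-5 read 3.36, 3.90 and 4.21 at 20 µM and 4.21, 4.07 and 3.54 at 4 µM. For grl-29 the wildtype values were 6.22, 6.42 and 6.12 at 20 µM and 6.16, 6.49 and 5.05 at 4 µM. Its pairs differed by 0.06, -0.07 and 1.06, so the difference lay in the pair numbered 3. In mutants grl-29 read 5.81, 5.95 and 6.23 at 20 µM and 6.06, 6.12 and 5.52 at 4 µM.

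The hog and quahog genes were also lowest on array 3 of the mutants at 4 µM. Quahog, qua-1, a Hog-region gene needed for molting, read 6.40, 5.52 and 5.36 in mutants at 20 µM, 6.01, 4.51 and 6.28 in wildtype at 20 µM, 5.41, 5.17 and 3.73 in mutants at 4 µM, and 5.81, 5.25 and 5.88 in wildtype at 4 µM. For hog-1 the values were 8.75, 8.17 and 8.26 in mutants at 20 µM, 8.57, 8.12 and 9.19 in wildtype at 20 µM, 8.65, 8.27 and 7.02 in mutants at 4 µM, and 8.18, 8.45 and 8.41 in wildtype at 4 µM. Both had their lowest value on array 3 of the mutants at 4 µM, and for each gene the mutant and wildtype ranges overlapped at both heme levels.

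Of the 6 members of highest mean, wrt-2 and grl-7 were lowest on that array too. In mutants at 4 µM wrt-2 read 11.39, 11.81 and 9.43, against 11.33, 11.22 and 11.13 in wildtype, and at 20 µM it read 12.26, 11.94 and 11.08 in mutants and 11.78, 10.54 and 11.86 in wildtype. For grl-7, which encodes a secreted protein of the apical extracellular matrix, the values were 12.22, 11.17 and 12.02 in mutants at 20 µM, 11.64, 11.32 and 12.43 in wildtype at 20 µM, 12.12, 11.94 and 10.79 in mutants at 4 µM, and 11.71, 12.06 and 12.30 in wildtype at 4 µM. Another probe set of grl-7 did not overlap between genotypes at 4 µM, with 9.87, 10.49 and 9.05 in mutants and 10.62, 11.16 and 10.77 in wildtype (-1.05 ± 0.46, SE, unadjusted p 0.046, adjusted p 0.791). In contrast grl-16 was lowest in mutants at 20 µM, with 8.60, 9.31 and 11.09, against 9.40, 10.78 and 10.97 in wildtype at 20 µM, and it read 9.66, 10.49 and 9.68 in mutants and 10.98, 11.69 and 10.24 in wildtype at 4 µM. Its values on arrays 1 and 2 of the mutants were below the wildtype values of the same number at each heme level.

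The 3 members of lowest mean stayed near the bottom of the scale on all arrays. Values of grl-24 lay between 2.06 and 2.85, those of grl-18, a gene of glial cells, between 2.30 and 2.84, and those of grd-16 between 2.22 and 2.85. No group stood apart for any of them.

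Further probe sets were measured for 12 members, 15 in all. The difference had the sign of the member's own probe set for 11 of the 15 in the genotype comparison at 4 µM, for 9 at 20 µM, for 11 in the heme comparison in wildtype and for 13 in that in mutants.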

How the data were processed

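The deposited table holds log2 expression values for 22625 probe sets on 12 arrays, made by the authors with RMA in Partek 6.5, per the submitters' processing notes. Its settings were not given in the sources used. All probe sets but the 77 controls were tested, 22548 in all, and were named from GEO's platform annotation, of which RefSeq (WBcel235) altered 0 symbols. No genome or gene sequence was used.

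The 12 arrays were fitted as 4 groups by lmFit and eBayes of limma 3.58.1 under R 4.3.3, with 8 residual and 2.24 prior degrees of freedom, two-sided tests, Benjamini-Hochberg correction over all probe sets and a threshold of 0.05. The script was tested on simulated data. Errors are SEs of differences and SDs of group means, and a fold is 2 raised to the difference. For each comparison, the 4 members of smallest p in each direction were named, with those of highest and lowest mean and of largest array 3 shift, qua-1, hog-1, ptc-1, ptc-3 and wrt-10. Others are named for groups that did not overlap or for a call on fewer arrays, chosen after their values were seen. So were ptr-8 and the other probe sets of grl-7, ptc-1, ptr-4 and ptr-23.

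The members, the gene lists and the use of arrays 1 and 2 alone were chosen with earlier results of these data known. The lists hold pathway relatives, molting and cuticle genes, and markers of hypodermis, seam, intestine, muscle, neurons, glia, sperm, oocyte and yolk; 0 genes of any list passed the threshold in the model above. The seam markers, 2 of 4 measured, shifted by -0.52 on array 3, and intestinal, muscle and neuronal markers by -0.54, -0.16 and -0.53.

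Deviations from the group means correlated above 0.1 for all 12 same-numbered array pairs (r across all probe sets, not independent of each other, between 0.255 and 0.817). The labels state no pairing, and values of this kind could also come from array 3 standing apart in each group. Alternatives were a replicate block, centred arrays, a filter on low values, array weights, arrays 1 and 2 only, only the groups compared, each array left out and the mean of a gene's probe sets.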

Additional observations from a re-analysis of the deposited data

How the results depend on the processing

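The counts of members past the threshold, 0 in all 6 comparisons, were above 0 under only 2 of the alternatives. On the arrays numbered 1 and 2 alone 3 members passed between genotypes at 4 µM, 6 averaged over heme levels and 16 between heme levels in mutants. With array weights, whose estimation stopped before its set tolerance, these counts were 0, 1 and 5. Leaving out any single array gave counts of 0 throughout (0 to 0), as did centring, the filter on low values, fitting only the groups compared and averaging probe sets. With the number as a replicate block, the paired fit, the counts were also 0 in each comparison, and the smallest adjusted p of a member was 0.169, for ptc-3 between heme levels in mutants. The block changed no call. Of 872 results for named genes under the alternatives, 858 kept their direction and side of the threshold, 14 passed it newly, 10 on arrays 1 and 2 and 4 with array weights, and 0 reversed. The cause of the newly passing results was not tested.

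The median over members moved with single arrays. That of the genotype difference at 4 µM, -0.18, was 0.08 without array 3 of the mutants at 4 µM, -0.38 and -0.30 without arrays 1 and 2 of that group and -0.33 without array 3 of wildtype at 4 µM. With 3 arrays a group, differences of low-level genes near background are not resolved.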
